A study of Mus musculus with 94 samples.

Results

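The 10 genes described here were taken by name from the 13244 genes of the deposited table: Mcl1, Bcl2, Bcl2l1, Bad, Bax, Bak1, Bid, Bcl2l11, Mdm2 and Zmat3. All 10 were listed. They were measured in 94 single blood stem cells of C57BL/6 mice, of which 46 carried the label Ski-KO and 48 the label Ski-WT. All were fetal liver stem cells that had spent 6 months in a transplanted host and were sorted from bone marrow as SLAM cells, that is Cd45.2+, Lineage-, Cd150+, Cd48-, c-Kit+ and Sca-1+. The Ski-KO cells came under 2 label prefixes, 051716 (27 cells) and 051816 (19 cells), and every Ski-WT cell came under the prefix 061016. Neither the meaning of the prefix nor the recipients, donors or deleted exons are given in the sources used here. Genotype and prefix cannot be told apart, each genotype is 1 sample, and cells are not replicates of it, so no test between genotypes was possible and no p-value is given.

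Proteins of the Bcl2 family decide whether the outer membrane of mitochondria stays closed. Pro-survival members (Mcl1, Bcl2 and Bcl-xL, the product of Bcl2l1) hold the pore-forming effectors Bax and Bak1 in check, and BH3-only proteins (Bad, Bid and Bim, the product of Bcl2l11) either block the pro-survival members or activate the effectors. Once the membrane opens, cytochrome c is released, the apoptosome forms and caspases are activated. The transcription factor p53 raises several pro-death members. It also induces Mdm2, the ubiquitin ligase that removes p53, and Zmat3, an RNA-binding protein gene. Blood stem cells are known to depend on Mcl1.

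The values are log2(TPM + 1), where TPM is the usual relative transcript level, which is corrected for transcript length and adds up to the same total in each cell, so levels of different genes can be compared within a cell. A gene is called detected in a cell at 5 TPM or more. Shares of cells carry an exact 95% Clopper-Pearson interval (CI), which covers the counting of cells only. For a count of 0 the limit given is instead 3 cells over the number of cells, a floor that lies somewhat under the exact interval. TPM values keep no sequencing depth, so the depth of each cell is unknown. A median of 3248 genes per cell was above 0 in prefix 051716, 3679 in 051816 and 3670.5 in Ski-WT. Gate genes fitted the sort in part: Kit was detected in 79 of 94 cells, Ly6a (Sca-1) in 56, Slamf1 (Cd150) in 11 and Cd48 in 0, which allows a share of up to 3.19%. Ly6a was unevenly spread, in 20 of 27 cells of 051716, 7 of 19 of 051816 and 29 of 48 Ski-WT cells. In that order Kit was detected in 23, 15 and 41 cells and Slamf1 in 2, 2 and 7. Ski itself was detected in 3 Ski-KO and 6 Ski-WT cells, which is too few to check the labels of genotype. Among markers of other cell types, 3 of 8 myeloid, 2 of 6 erythroid, 2 of 4 lymphoid, 2 of 4 mast cell and 2 of 5 macrophage genes that the table lists were at 0 in all cells. Others were common: Car2 was detected in all 94 cells, Gata2 in 73, Prtn3 in 57, Lyz2 in 56 and Nkg7 in 37. The median summed level was 405 TPM for the myeloid and 3165 TPM for the erythroid list. All 5 megakaryocyte genes were above 0 in some cell, with a median summed level of 1.02 TPM and a highest value of 7516 TPM.

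Most cells held few of the 10 transcripts at a detectable level, and a cell that held one usually held it at a high level. Of 94 cells, 18 had no member at 5 TPM, 29 had 1, 28 had 2, 11 had 3, 5 had 4 and 3 had 5. No cell had more than 5. The median number was 1 in each Ski-KO prefix and 2 in Ski-WT. Mcl1 was the most widely detected member, in 32 cells (34.04%, CI 24.6% to 44.5%), followed by Bcl2, Bcl2l1 and Mdm2 with 23 cells each (24.5%, CI 16.2% to 34.4%) and Bad with 22. Bax and Bid were each detected in 12 cells (12.8%, CI 6.77% to 21.2%), and Bak1, Bcl2l11 and Zmat3 in 2 each (2.13%, CI 0.26% to 7.48%). The intervals of the first 5 genes overlap. Those of Mcl1 and of the last 3 do not. None of the 10 reached 5 TPM in 50% of all cells, a level that 1230 genes of the table reached, and the search for genes of like pattern, which was limited to members past that level, therefore named none.

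**Figure D1:**
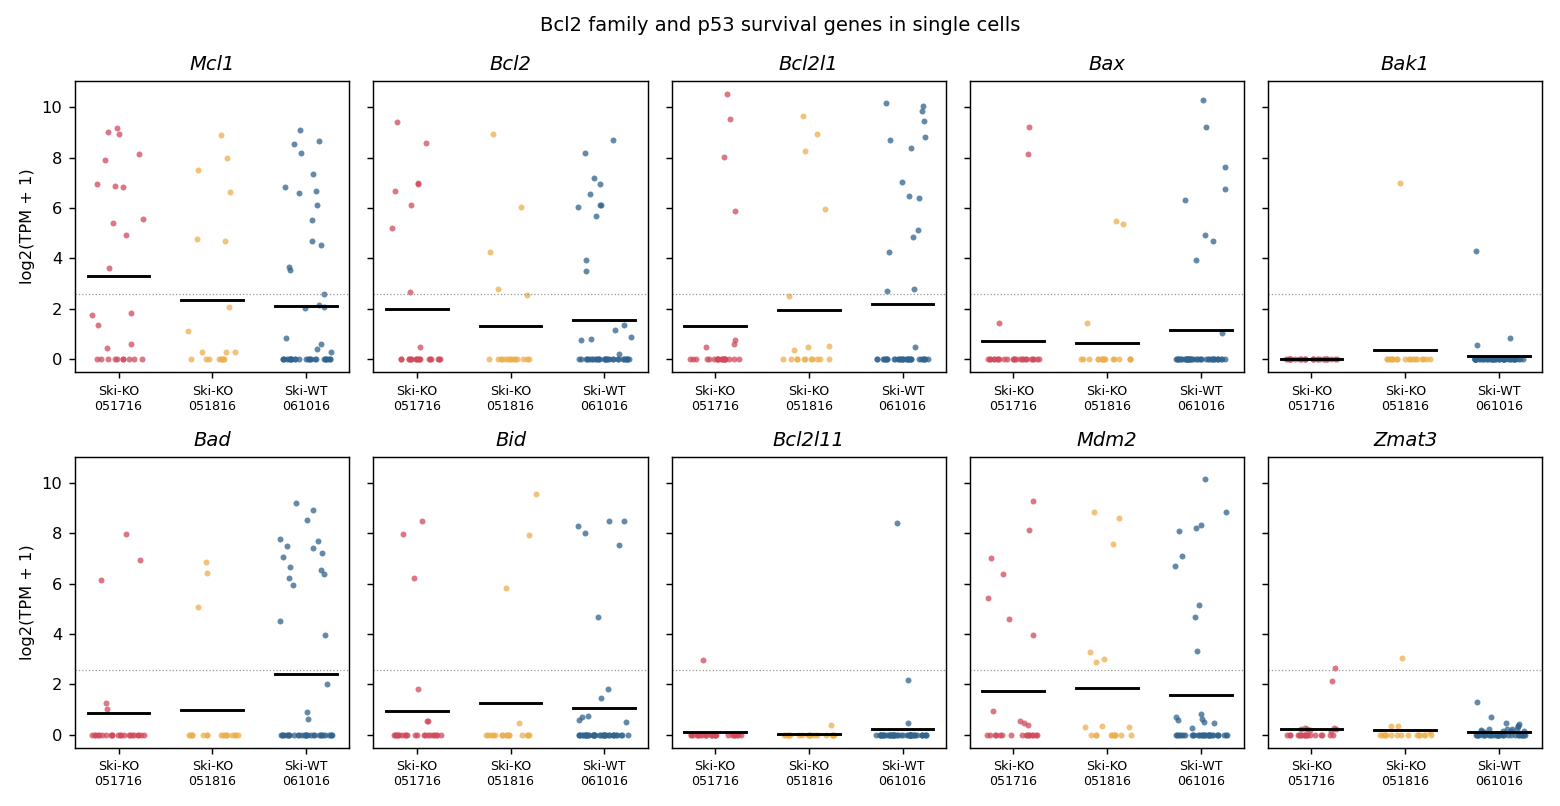
Expression of the 10 genes in single cells, as log2(TPM + 1) on the vertical axis, with the 3 prefixes side by side (horizontal axis). Points are single cells, black lines are means over the cells of a prefix, and the dotted line marks 5 TPM. Most points lie at or near 0 and the detected cells lie far above, as for Bcl2l1, whose detected Ski-KO cells start at 57.4 TPM, while nearly all Zmat3 values stay under the dotted line.

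Ordered by mean level over all 94 cells, Bcl2l1 came first with 103 TPM, then Mcl1 (63.3 TPM), Mdm2 (53.9 TPM), Bad (38.6 TPM), Bcl2 (36.95 TPM), Bax (34.96 TPM) and Bid (34.6 TPM). Bcl2l11 (3.71 TPM), Bak1 (1.55 TPM) and Zmat3 (0.23 TPM) lay far below. The mean of Bcl2l1 exceeded that of Mcl1 although fewer cells held it, since its median among detected cells was 308 TPM against 113 TPM for Mcl1. Some means rested on few cells. A single Ski-WT cell made up 96.8% of all Bcl2l11 signal, and a single Ski-WT cell made up 38.6% of all Bax signal, whereas the highest cell gave 9.7% of the Mcl1 signal. Neighbours in this order do not differ beyond the spread of single cells.

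Mcl1, a short-lived pro-survival protein, was the pro-survival gene seen in the most cells of each Ski-KO prefix. In prefix 051716 its values of log2(TPM + 1) ran from 0 through a median of 1.74 to 9.18, in 051816 from 0 through 0.28 to 8.91, and in Ski-WT from 0 through 0 to 9.09. The groups overlapped over almost their whole range. Mcl1 was detected in 12 of 27 cells of 051716 (44.4%, CI 25.5% to 64.7%), in 6 of 19 of 051816 (31.6%, CI 12.6% to 56.6%) and in 14 of 48 Ski-WT cells (29.2%, CI 16.95% to 44.1%). The mean log2 level was 2.91 in Ski-KO and 2.10 in Ski-WT, so Ski-KO lay 0.81 higher, with prefix 051716 at 1.21 and 051816 at 0.24. Among detected cells the medians lay close together, at 6.91, 7.07 and 6.63 on the log2 scale in the same order. Mean levels were 79.8 TPM in Ski-KO and 47.5 TPM in Ski-WT. The log2 difference became 1.42 without the cells under 3000 genes above 0, 1.21 with a pseudocount of 0.1 and 1.17 after quantile normalization. Other settings made it smaller, such as the log2 ratio of mean TPM, at 0.75. Over all 11 alternatives it ran from 0.24, in prefix 051816 alone, to 1.42.

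Immediate early genes, which respond within minutes to stimuli that include tissue dissociation, differed between the prefixes in the same order as Mcl1. The summed level of 12 such genes (Fos, Jun, Egr1 and others) had a median of 4236 TPM in 051716 (range 0 to 12241), 2457 TPM in 051816 (range 26.99 to 6403) and 2015 TPM in Ski-WT (range 8.89 to 7090). Within the Ski-WT cells alone, the 14 cells with Mcl1 had a median sum of 3106 TPM and the 34 without it 1769 TPM. Within Ski-KO the medians were 3910 TPM in 18 cells and 2602 TPM in 28. The order held in 051716, with 5289 against 3578 TPM, and was opposite in 051816, with 2179 against 2457 TPM. The quartile ranges overlapped in both genotypes, and the part of these genes in the Mcl1 values was not tested.

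Bcl2, the founding pro-survival member, was detected in 8 of 27 cells of 051716, 4 of 19 of 051816 and 11 of 48 Ski-WT cells. Its highest values were 683, 496 and 422 TPM in that order, and its median over all cells was 0 in every prefix. The difference of means was 0.15 on the log2 scale, from 1.69 in Ski-KO and 1.54 in Ski-WT. The prefixes lay on opposite sides of Ski-WT, at 0.42 and -0.25, so no direction is given for the genotype.

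Bcl2l1, whose protein Bcl-xL blocks the same effectors, was at 5 TPM in a smaller share of Ski-KO than Ski-WT cells, a gap that rested on that limit. It was detected in 4 of 27 cells of 051716, 4 of 19 of 051816 and 15 of 48 Ski-WT cells, which is 17.4% of all Ski-KO cells (CI 7.82% to 31.4%) and 31.2% of Ski-WT cells (CI 18.7% to 46.2%). The detected Ski-KO cells held a median of 400 TPM (range 57.4 to 1473 TPM) and the detected Ski-WT cells 132 TPM (range 5.43 to 1162 TPM). The mean log2 level was 1.57 in Ski-KO and 2.20 in Ski-WT, a difference of -0.63, with -0.88 in 051716 and -0.27 in 051816. Mean levels were 91.4 and 114 TPM. The intervals of the shares overlap, and so do the ranges of the detected cells. Above 0 the shares were 32.6% in Ski-KO and 33.3% in Ski-WT, and the median over cells above 0 was lower in Ski-KO by a log2 difference of -0.90, the reverse of the order at 5 TPM.

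**Figure D2:**
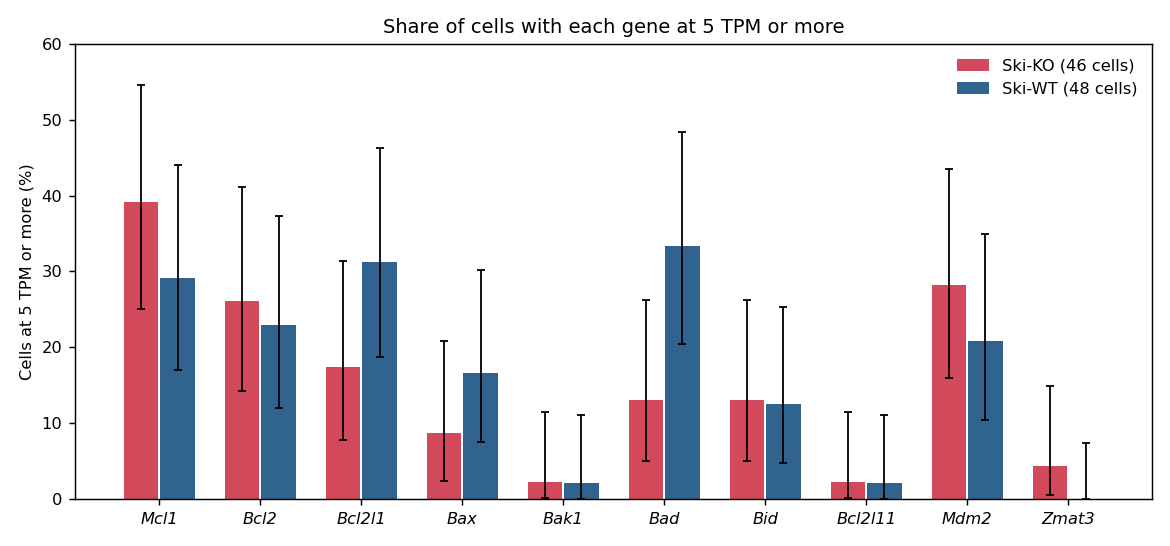
Share of cells (vertical axis, percent) with each of the 10 genes (horizontal axis) at 5 TPM or more, for 46 Ski-KO and 48 Ski-WT cells. Error bars are exact 95% binomial intervals and cover the counting of cells only. Bad has the widest gap, 13.04% against 33.3%, and the intervals of all 10 genes overlap between genotypes.

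Of the pore-forming effectors, Bax was detected in some cells and Bak1 in hardly any. Bax was detected in 2 of 27 cells of 051716, 2 of 19 of 051816 and 8 of 48 Ski-WT cells, which is 8.7% of Ski-KO (CI 2.42% to 20.8%) and 16.7% of Ski-WT (CI 7.48% to 30.2%). The 2 cells of 051716 held 284 and 591 TPM, the 2 of 051816 held 40.3 and 44.3 TPM, and the Ski-WT cells ran from 14.1 to 1268 TPM. The difference of mean log2 levels was -0.47, with -0.45 and -0.50 in the prefixes. Bak1 was detected in Ski-KO cell 33 (125 TPM, prefix 051816) and Ski-WT cell 3 (18.8 TPM). In prefix 051716 it was at 0 in all 27 cells, which allows a share of up to 11.1%. Both cells with Bak1 also held Bad, at 115 and 91.4 TPM.

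Bad, the BH3-only gene whose protein is switched off by survival kinases and held by 14-3-3 proteins, had the widest gap between genotypes. It was detected in 3 of 27 cells of 051716, at 70.6 to 254 TPM, in 3 of 19 of 051816, at 32.7 to 115 TPM, and in 16 of 48 Ski-WT cells, at 14.7 to 591 TPM. That is 13.04% of Ski-KO cells (CI 4.94% to 26.3%) and 33.3% of Ski-WT cells (CI 20.4% to 48.4%). Among detected cells the medians were 100.3 TPM in Ski-KO and 141 TPM in Ski-WT, so the gap lay mostly in how many cells held the transcript. The mean log2 level was 0.91 in Ski-KO and 2.40 in Ski-WT, a difference of -1.49, with -1.53 in 051716 and -1.43 in 051816, and the mean level was 14.8 TPM against 61.4 TPM, or 4.14-fold. Cells with Bad had a median of 3883 genes above 0 and cells without it 3439, an order that did not hold within 051716 (3148 against 3333). With the number of genes above 0 as a covariate, the difference for Bad was -1.22. With a pseudocount of 10 it was -0.83, under the limit of 1 used next, and with one of 0.1 it was -2.20.

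With a pseudocount of 1, Bad was the only member past a difference of 1 log2 unit in size with the same sign in both prefixes, and such differences were common among all genes. Of 6240 genes with a value above 0 in 25% or more of the Ski-KO or of the Ski-WT cells, 718 were lower in Ski-KO by this rule (11.5%) and 125 were higher (2.0%). Of the 10 members, 7 passed the filter, 1 was lower and 0 were higher. With no filter the same member was past the limit, beside 733 of 13244 genes lower (5.53%). Bax, Bak1 and Bcl2l11 did not pass the filter. Bad and Bid passed it through the Ski-WT cells only, so Bad had entered through the genotype in which it was high. A share at 5 TPM lower by as many points as that of Bad (-20.3) was found for 220 of the 6240 genes (3.53%). With the median over genes taken off, since all 6240 genes had a median difference of -0.22, Mcl1 also passed the limit as higher, and the background became 6.84% lower and 4.04% higher, so that lower genes made up 62.9% of those past the limit in place of 85.2%. The 7 members had a median difference of 0.11. Both prefix differences use the same Ski-WT cells.

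**Figure D3:**
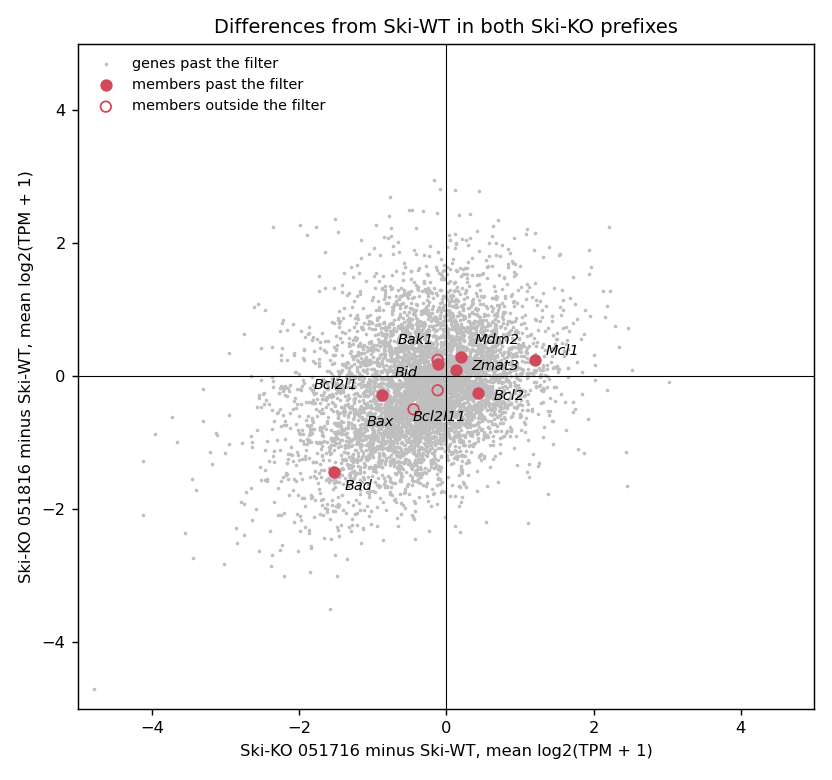
Prefix 051716 minus Ski-WT (horizontal axis) against prefix 051816 minus Ski-WT (vertical axis), both as differences of mean log2(TPM + 1). Grey points are the 6240 genes that passed the filter of 25% of cells, filled red points are the 7 members among them and open points the other 3. Bad lies at -1.53 and -1.43 within the spread of the grey points, and the other members lie closer to 0 or, for Mcl1, to the right.

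The other BH3-only genes showed no such gap. Bid, which caspase-8 cleaves into its active form, was detected in 3 of 27, 3 of 19 and 6 of 48 cells of 051716, 051816 and Ski-WT, with means of 1.07 on the log2 scale in both genotypes and a difference of 0.01. Its detected cells were among the highest of the pro-death members, with a median of 249 TPM in Ski-KO and 283 TPM in Ski-WT. Bcl2l11 was detected in Ski-KO cell 9 (6.91 TPM) and in Ski-WT cell 43 (338 TPM), and in 0 of 19 cells of 051816, which allows a share of up to 15.8%. Ski-WT cell 43 also held Bcl2l1 at 1162 TPM, Mcl1 at 68.2 TPM and Bcl2 at 69.1 TPM. It was the only cell with all 3 pro-survival members and Bcl2l11 above 5 TPM.

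Of the p53-linked members, Mdm2 was common and Zmat3 was nearly absent. Mdm2 was detected in 7 of 27 cells of 051716, 6 of 19 of 051816 and 10 of 48 Ski-WT cells, which is 28.3% of Ski-KO (CI 15.99% to 43.5%) and 20.8% of Ski-WT (CI 10.5% to 34.99%). The detected Ski-KO cells held a median of 82.8 TPM and the detected Ski-WT cells 204 TPM, with a highest value of 1139 TPM in Ski-WT cell 30. The difference of mean log2 levels was 0.23, with 0.19 and 0.29 in the prefixes, whereas mean TPM was lower in Ski-KO, at 49.0 against 58.5 TPM, so the sign depends on the scale. Zmat3 was above 0 in 29 cells but at 5 TPM or more in only 2, both Ski-KO, at 5.33 and 7.14 TPM. In Ski-WT its highest value was 1.47 TPM, and 0 of 48 cells were at 5 TPM, which allows a share of up to 6.25%. Trp53, the gene of p53, was detected in 77 of 94 cells with a mean of 927 TPM. Of those 77 cells 21 also held Mdm2 (27.3%, CI 17.7% to 38.6%), against 2 of the 17 cells without Trp53 (11.8%, CI 1.46% to 36.4%).

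Most cells held at most 1 pro-survival gene at 5 TPM. Of 94 cells, 38 held none of Mcl1, Bcl2 and Bcl2l1 at 5 TPM, 38 held exactly 1, 14 held 2 and 4 held all 3. In the 56 cells with any of them, the highest was Mcl1 in 22 cells, Bcl2l1 in 21 and Bcl2 in 13. In Ski-KO Mcl1 led in 12 of 26 such cells and Bcl2l1 in 8, while in Ski-WT Mcl1 led in 10 of 30 and Bcl2l1 in 13. Mcl1 was detected in 12 of 23 cells with Bcl2 (52.2%, CI 30.6% to 73.2%) and in 20 of 71 without it (28.2%, CI 18.1% to 40.1%), and the intervals overlap. With and without Bcl2l1 the shares with Mcl1 were 34.8% and 33.8%. The 38 cells with none of the 3 had a median of 3399.5 genes above 0 and the 56 others 3691.5. This gap lay in Ski-KO, with 3226.5 against 3715.5, while both medians were 3670.5 in Ski-WT.

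Over all 94 cells, each of the pro-death genes was detected in fewer cells than Mcl1, and most cells held none. Neither held within Ski-WT, where Bad was detected in 16 cells and Mcl1 in 14, and 25 of 48 cells held a pro-death gene. Of 94 cells, 53 held none of the 5 at 5 TPM, 33 held 1, 7 held 2 and 1 held 3. Bad was the highest in 19 of the 41 cells with any, Bid in 11, Bax in 8, Bcl2l11 in 2 and Bak1 in 1. A pro-death gene was detected in 16 of 46 Ski-KO cells (34.8%, CI 21.4% to 50.2%) and in 25 of 48 Ski-WT cells (52.1%, CI 37.2% to 66.7%). Without Bad the shares were 23.9% and 31.2%. A pro-survival gene was detected in 26 Ski-KO cells (56.5%, CI 41.1% to 71.1%) and 30 Ski-WT cells (62.5%, CI 47.4% to 76.05%). In both cases the intervals of the genotypes overlap.

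**Figure D4:**
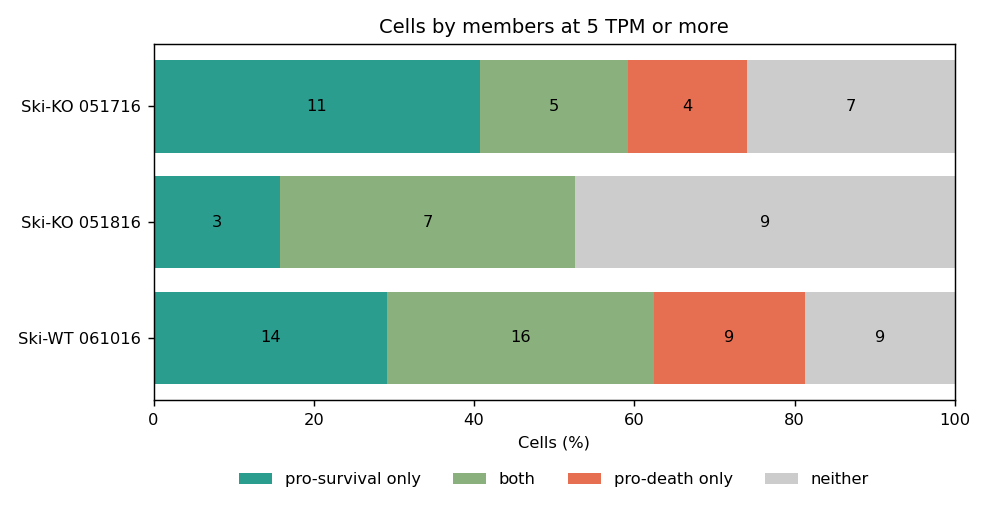
Share of cells (horizontal axis, percent) in each prefix (vertical axis) that held only pro-survival members, both kinds, only pro-death members or neither at 5 TPM or more. Numbers inside the bars are cells. The 19 cells of 051816 include 0 with only pro-death members, against 4 of 27 in 051716 and 9 of 48 in Ski-WT.

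Counts of cells in these classes were taken for each prefix. In 051716, 11 of 27 cells held only pro-survival genes, 5 held both kinds, 4 held only pro-death genes and 7 held neither. In 051816 the counts were 3, 7, 0 and 9 of 19 cells, and in Ski-WT they were 14, 16, 9 and 9 of 48. All 7 cells of 051816 with a pro-death gene thus also held a pro-survival gene. The exact interval of the 0 of 19 cells with pro-death genes alone runs up to 17.6%. That of the 14.8% in 051716 runs from 4.19% to 33.7%. For the other classes the intervals of the Ski-KO prefixes overlap as well, so the prefixes were not shown to differ.

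The balance in each cell was taken as log2 of the summed TPM of the 3 pro-survival genes plus 1 minus log2 of the summed TPM of the 5 pro-death genes plus 1. It was wide in every group. In 051716 it ran from -6.96 through a median of 1.80 to 9.74, in 051816 from 0 through 1.34 to 5.95, and in Ski-WT from -8.70 through 0.58 to 9.29. The mean was 2.29 ± 5.31 in 051716, 1.71 ± 1.80 in 051816 and 0.51 ± 4.87 in Ski-WT (SD over 27, 19 and 48 cells). The ranges of the groups overlapped. The 19 cells of 051816 had the narrowest spread, with 9 of 19 cells within 1 log2 unit of 0, against 4 of 27 and 11 of 48. These counts include cells with both sums at 0, which were 3 in 051816, 2 in 051716 and 7 in Ski-WT. In 051816 they also include cells 34, 37 and 46, with 0.19 to 0.22 TPM pro-survival and 0 TPM pro-death. A balance near 0 could thus mean little or no signal on either side.

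Ski-KO cells had a mean balance of 2.05, which is 1.55 above that of Ski-WT, with 1.78 in 051716 and 1.21 in 051816. Over all Ski-KO cells this difference came almost wholly from the pro-death side. The summed pro-survival side differed by 0.04 and the summed pro-death side by -1.50. By prefix the pro-survival side had opposite signs, at 0.26 in 051716 and -0.26 in 051816. The pro-death side was at -1.52 and -1.47 in that order. Mean summed levels were 217 TPM pro-survival and 76.4 TPM pro-death in Ski-KO, a ratio of 2.84, and 189 and 149 TPM in Ski-WT, a ratio of 1.27. Bad carried much of it: without Bad the difference in balance was 0.70. The size of the difference is smaller than the SD over cells of either genotype.

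**Figure D5:**
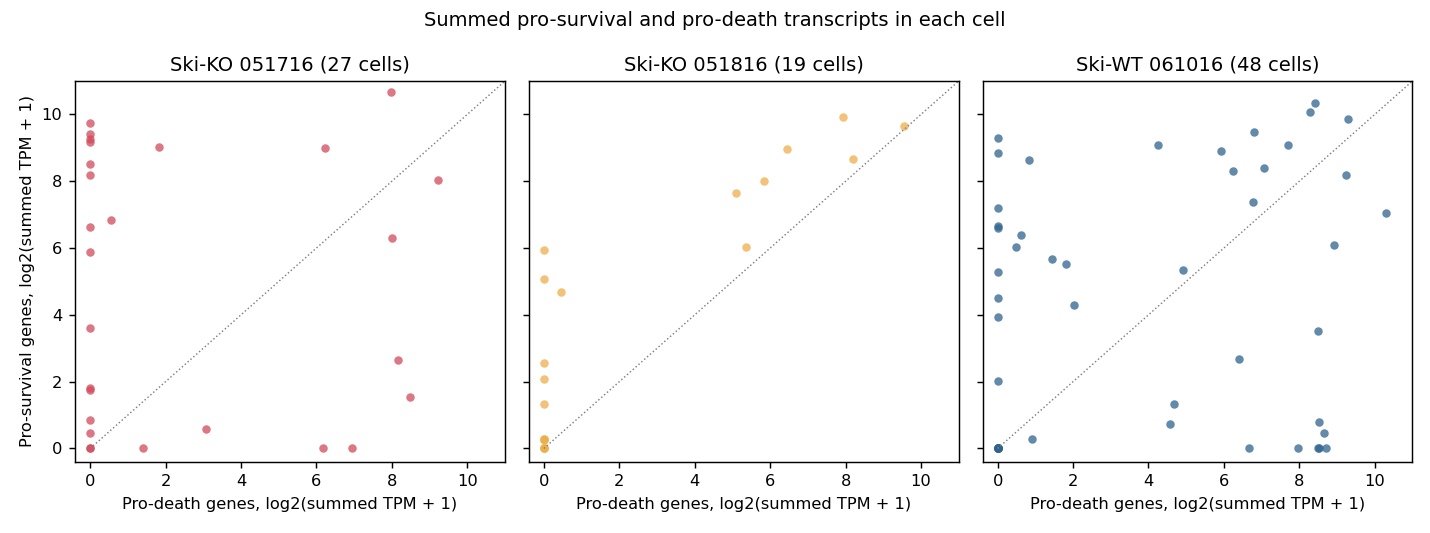
Summed pro-survival (vertical axis) against summed pro-death transcripts (horizontal axis), as log2(summed TPM + 1), in each cell of the 3 prefixes. Each point is a cell and the dotted line marks equal sums. Cells of 051716 and Ski-WT lie along both axes and above and below the line, while no cell of 051816 lies below it.

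Pro-survival transcripts outweighed pro-death transcripts in 33 of 46 Ski-KO cells (71.7%, CI 56.5% to 84.01%) and 26 of 48 Ski-WT cells (54.2%, CI 39.2% to 68.6%), and the reverse held in 8 and 15 cells. In 5 Ski-KO and 7 Ski-WT cells both sums were 0. The excess in Ski-KO rested on values under 5 TPM. With values under 5 TPM set to 0, the counts were 23 of 46 and 25 of 48 cells, or 50% and 52.1%, and the order of the genotypes turned. The difference in mean balance with that setting was 1.28. Without Mcl1 the pro-survival side outweighed in only 20 Ski-KO cells and 19 Ski-WT cells.

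Single cells at the ends of the scale show how far the balance could lean. Ski-KO cell 13, with the highest balance (9.74), held Bcl2l1 at 739 TPM, Mcl1 at 118 TPM and Mdm2 at 129 TPM, with all 5 pro-death genes at 0. Ski-KO cell 6 rested on Bcl2 alone, at 683 TPM, and Ski-KO cell 27 on Mcl1 alone, at 578 TPM. All 5 pro-death genes were at 0 TPM in these 3 cells, whose depth is unknown. At the other end, Ski-WT cell 33 held Bax at 198 TPM and Bad at 216 TPM, and Ski-WT cell 19 held Bad at 182 TPM and Bid at 186 TPM, both with all 3 pro-survival genes at 0. Ski-WT cell 35 held both sides at a high level, with Bcl2l1 at 925 TPM and Bad at 591 TPM, a balance of 0.56.

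Cells with different members also differed in other genes. The summed level of 10 replication and mitosis genes (Mki67, Top2a, Pcna and others) had a median of 225 TPM in the 32 cells with Mcl1 and 749 TPM in the 62 without it, with 163 against 669 TPM within Ski-KO and 391 against 764 TPM within Ski-WT. The Ski-KO prefixes differed in this sum, with medians of 109 TPM in 051716 and 938 TPM in 051816, and the order was opposite within 051716, with 155 TPM in cells with Mcl1 and 80.97 TPM in those without it. In 051816 it was 552 against 938 TPM. For Bad the order was opposite, with 935 TPM in the 22 cells with Bad and 473 TPM in the 72 without it, and 817 against 370 TPM and 1023 against 479 TPM within the genotypes. Within 051716 that order was also opposite, with 41.7 TPM in 3 cells and 155 TPM in 24. Bax had 922 against 439 TPM. Quartile ranges overlapped for all 3 genes over all cells. The cells with Bax had a median of 3938.5 genes above 0 and those without it 3439, and the part of that number was not tested.

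The rest of the pathway was read from 8 lists, with 58 distinct genes past the filter, of which 1 was higher and 5 were lower by the rule of 1 log2 unit. Over all 6240 genes 11.5% were lower and 2.0% higher, so these counts are not set apart from the background. Their median difference was -0.27, beside -0.22 over all genes. Among other Bcl2 family genes, Bnip3, a BH3-like mitophagy receptor gene, had a difference of -1.98, detected in 7 cells of Ski-KO and 19 of Ski-WT, and its relative Bnip3l had -1.13, detected in 27 and 37 cells. These were 2 of 4 measured genes of that list, too few to read against the background of 11.5%. For Bnip3l mean TPM had the opposite sign, with a log2 ratio of 0.16. Bcl2l12 had -0.79 and Bcl2l13 had 0.05, with log2 ratios of mean TPM of -1.25 and -0.60. Of the known p53-induced BH3-only genes, Bbc3 (Puma) was detected in 3 of 94 cells. Of the pro-survival relatives, Bcl2l2 (Bcl-w) was detected in 3 cells, all Ski-WT.

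Caspases and their inhibitors showed no member past the limit, beside 11.5% of all genes lower and 2.0% higher. The lists in this paragraph are too short to set apart from those shares. Of 9 measured genes for caspase activation, 0 were higher and 0 lower, with Fadd, the death receptor adaptor, at -0.57 and Casp6 at -0.52. On the scale of mean TPM both had the opposite sign, with log2 ratios of 0.26 and 0.29. Cycs, which encodes cytochrome c, split the prefixes, at -0.76 in 051716 and 2.12 in 051816. Of 5 measured caspase inhibitors and antagonists none passed, and Birc3, an inhibitor of apoptosis gene, had the most even difference, 0.74 and 0.76 in the prefixes, with detection in 7 Ski-KO and 3 Ski-WT cells. Apaf1, the scaffold of the apoptosome, was detected in only 4 of 94 cells. Among 8 measured mitochondrial partners, Vdac3 had -0.55 and Bcap31 had 0.78, and none passed. For Vdac3 the log2 ratio of mean TPM had the opposite sign, at 0.43.

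Of 8 measured p53 regulators none passed the limit either, beside 11.5% of all genes lower and 2.0% higher. This list and that of p53 targets are too short to set apart from those shares. Mdm4, the partner of Mdm2, had a difference of -0.85, Usp7, the deubiquitinase of Mdm2 and p53, -0.65, the damage kinase gene Atm -0.47 and Trp53 -0.91, with -1.40 in 051716 and -0.21 in 051816. Trp53 was detected in 36 of 46 Ski-KO and 41 of 48 Ski-WT cells, with means of 866 and 985 TPM. Of 7 measured p53 targets 0 passed, led by Btg2 (0.74), Xpc (-0.59), Tnfrsf10b (-0.59) and Aen (0.30), whose log2 ratio of mean TPM was -0.11. Cdkn1a, which encodes the cell cycle inhibitor p21, was detected in 3 Ski-KO cells and 1 Ski-WT cell.

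Of 14 measured genes of survival signals, 3 were lower by the limit and 0 were higher, beside 11.5% and 2.0% of all genes. Stat5a, a transcription factor gene of cytokine signalling, had a difference of -1.09 and was detected in 14 Ski-KO and 22 Ski-WT cells. Gsk3b, a kinase that marks Mcl1 for removal, had -1.32, with detection in 37 and 46 cells. Kit, the stem cell factor receptor gene, had -0.72 and was not past the limit. Among 3 measured ubiquitin enzymes of Mcl1, Usp9x, which removes ubiquitin from it, had 1.09, detected in 24 Ski-KO and 16 Ski-WT cells, while Fbxw7 had 0.72 and Huwe1 -0.57.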

How the data were processed

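A Fluidigm C1 chip held the captured single cells, and SMARTer cDNA was made into Nextera XT libraries (per the labels' protocols). The submitters' processing notes name RSEM, Bowtie2 and the build mm9, with no version or role. The authors deposited log2 values, read here as log2(TPM + 1) because back-transformed values sum to between 997625 and 999995 per cell. Columns were matched to cells by description. No cell or gene was removed, and no doublet caller was run. The highest Pearson correlation between cells was 0.53.

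Members and lists were chosen with earlier results of these data known. Named list genes were the up to 4 measured genes with the largest smaller prefix difference of equal sign. Single cells, and the genes Cycs, Apaf1, Bbc3, Bcl2l2 and Cdkn1a, were named after their values were seen. Some genes that the naming rule picks are not reported here. The limit of 1 log2 unit stands in for a call, since each genotype is 1 sample. In GENCODE M21, of another build and used for gene pairs only, exons of Bad overlap Gpr137 and those of Bid overlap Bcl2l13 on the opposite strand. Gpr137 was detected in 5 cells, 3 of them with Bad, and Bcl2l13 in 12, 2 of them with Bid. Whether counting used strand is not given in the sources used here. The difference script was tested on simulated data. Tools were scipy 1.17.1 and pandas 2.3.3 under Python 3.11.15, with numpy 2.4.6, and matplotlib 3.10.9 for the plots.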

Additional observations from a re-analysis of the deposited data

How the results depend on the processing

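No paired analysis was possible because the cell numbers in the titles only count cells and no test was made. The depth of each cell is unknown, and with 1 sample per genotype no replicate could be left out. A value is said to move when it leaves the interval of its share, or changes by more than the gap between the Ski-KO prefixes. The difference in balance was 1.55 and stayed above 0 in every alternative run, moving to 2.40 and 0.93 with pseudocounts of 0.1 and 10, to 0.52 with means of log2 values, to 0.50 with effectors only and to 0.70 without Bad. The share of Ski-KO cells with a balance above 0 moved to 43.5% without Mcl1, 50% with values under 5 TPM set to 0, 84.2% in prefix 051816 alone and 56.5% by shares of members detected. The Ski-WT share moved to 68.8% with effectors only and 35.4% without Bcl2l1. Counting values above 0, 82.6% of Ski-KO cells held a pro-survival member, and without Bad 31.2% of Ski-WT cells held a pro-death member. The count of members past the limit was 1, and became 3 at a limit of 0.5 (Mcl1 higher, Bcl2l1 and Bad lower), 2 with the median over genes taken off, and 0 with a filter of 50% of cells, which only Mcl1 passed. Over all genes, 29.3% were lower and 8.91% higher at the limit of 0.5. With the filter of 50% of cells, 16.4% were lower and 2.55% higher. The counts of members are too small to set apart from these shares. Taking off the median also moved lower calls from 85.2% to 62.9% of all calls. Of 11 alternatives per gene, the sign turned in 2 each for Bcl2, Bak1, Bid and Mdm2 and in none for the other 6. Bad left the limit of 1 with a pseudocount of 10 (-0.83) and with the median over cells above 0 (-0.36). Leaving out Bad, Bax, Bid, Bcl2 or Bcl2l1, leaving out cells with both sums at 0, and counting any pro-survival value above 0 were chosen after seeing the data.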

Other observations

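Pro-survival and pro-death members were found together in some cells. A pro-death member was detected in 28 of the 56 cells with a pro-survival member (50%, CI 36.3% to 63.7%) and in 13 of the 38 cells without one (34.2%, CI 19.6% to 51.4%). These intervals overlap, and the order was not shared by the prefixes. The shares were 70% against 0% (CI up to 33.6%) in 051816 and 53.3% against 50% in Ski-WT. In 051716 the order was opposite, with 31.25% against 36.4%. Bcl2l1 was detected in 5 of the 12 cells with Bax (41.7%, CI 15.2% to 72.3%) and in 18 of the 82 without it (21.95%, CI 13.6% to 32.5%). The intervals overlap, and within Ski-WT the shares were 37.5% and 30%. Within Ski-KO, cells with a pro-survival member had a median of 3715.5 genes above 0 and the others 3226.5, and in Ski-WT both medians were 3670.5. The part of that number was not tested.

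The list of myeloid marker genes had a lower median in cells with Bax. Elane, Mpo and Ctsg of that list were at 0 in all cells, and only Prtn3 and Lyz2 passed the filter. The summed level had a median of 135 TPM in the 12 cells with Bax and 521 TPM in the 82 without it. Within Ski-KO it was 33.1 against 405 TPM, with only 4 cells with Bax. Within Ski-WT it was 198 against 693 TPM, with 8 cells with Bax. For Bad the genotypes differed in order, with 139 against 438 TPM in Ski-KO and 626 against 444 TPM in Ski-WT. Cells with Bad numbered 6 in Ski-KO and 16 in Ski-WT. The quartile ranges over all cells overlapped for both genes.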
